A study of Rattus norvegicus with 12 samples.

Results

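The small nuclear RNA (snRNA) genes described here are the 571 of the 1474 snRNA-named genes in the deposited count table that held 60 or more counts summed over the 12 libraries, out of 30560 genes in all. A gene counted as snRNA-named where its deposited name was U1, U2, U4, U5, U6, U7 or U12, or began with Rnu and a digit, and each Ensembl identifier was 1 copy. The names U11, U4atac and U6atac were also searched and matched 0 genes, so U11 entered only as Rnu11. The copies were chosen by this count sum, so their abundance is a description and not a finding. The label spliceosomal holds for all the names except U7, which marks 11 of the 571 copies.

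Spliceosomal snRNAs are short nuclear RNAs that, bound to proteins, cut introns out of pre-mRNA. U1 pairs with the 5′ splice site, U2 with the branch point, U4 holds U6 inactive until the spliceosome is assembled, U5 holds the exons in place and U6 forms the catalytic centre. U11 and U12 take the places of U1 and U2 in the minor spliceosome, which removes a rare class of introns, whereas U7 acts outside splicing, in the 3′ end processing of histone pre-mRNA. Most of these RNAs work in the nucleus, and mammalian genomes carry many pseudogene copies of them beside the functional genes.

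The libraries came from hindlimb muscle of 1 wild-type male Wistar Kyoto rat aged 14 weeks, whose homogenate was pooled and divided into aliquots, 3 for each of 4 preparations. The mitoplast_RNase group held mitoplasts, organelles without their outer membrane, prepared from immunoprecipitated mitochondria. The IP_RNase_ProK and IP_RNase groups held mitochondria captured on magnetic beads, with and without proteinase K, a protease that digests exposed proteins. Mitochondria of the crude_RNase group were obtained by differential centrifugation without beads. All preparations received RNase A, which degrades accessible RNA, so no group shows the RNA content before digestion. Libraries were made from 6.3 ng of RNA for crude_RNase and 40 ng for the other groups, so input and preparation cannot be told apart in comparisons with crude_RNase. Because the aliquots share 1 animal and 1 homogenate, p-values cover no more than the spread among these aliquots, which may be technical, and fewer organelles or nuclei cannot be told apart from less RNA in each.

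Total counts were 3325430 to 4563254 per library in the 3 immunoprecipitated groups and 6583452 to 7123045 in crude_RNase. Transcripts of 9 skeletal muscle fibre genes, which mark the tissue, summed to 724 to 969 CPM (counts per 1e+06 counts of the TMM-scaled library) in the immunoprecipitated groups and to 5147 to 6639 CPM in crude_RNase. Transcripts of 5 fibroblast and matrix genes summed to 273 to 314 CPM against 1459 to 1611 CPM, and the 13 mitochondrial mRNAs to 12146 to 50036 CPM against 338537 to 549471 CPM. Those of 2 erythroid genes summed to 53.8 to 60.7 CPM against 67.2 to 83.5 CPM. Other marker lists overlapped with crude_RNase. Endothelial genes (5) summed to 266 to 295 against 279 to 294 CPM, and macrophage and leukocyte genes (5) to 270 to 294 against 284 to 300 CPM. Schwann cell genes (3) summed to 75.3 to 98.8 against 80.3 to 91.7 CPM, and adipocyte genes (3) to 70.2 to 81.2 against 63.9 to 78.4 CPM. The names of 7 RNAs that mark nuclei by being retained there, Malat1 and Neat1 among them, matched 0 genes, so none of them was analysed here. What these differences contribute to the snRNA comparisons was not tested.

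The counts of snRNA genes were spread thinly over very many copies. The 1474 genes held 82246 counts in all 12 libraries, 25 genes held 0 and 83 held fewer than 10, and it took 396 genes to reach 50% of the counts. The copy with the most counts, a U1 gene, held 0.427% of them, and the 571 copies with 60 or more held 64.1%. Within these 571 the count sum ran from 60 to 351, with a median of 85. U6, the catalytic snRNA, had the most genes, 796, of which 280 were at or above 60, and its leading copy held 0.450% of the U6 counts. U1 had 167 genes with 108 at or above 60, and its leading copy held 2.60% of the U1 counts. U2 contributed 88 copies of 236 genes, U4 76 of 136, U5 6 of 12, U7 11 of 122, U12 1 of 4, and Rnu11 its single gene. The deposited names do not tell functional genes from pseudogene copies. Gene lengths were not used, so levels are not compared between families.

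**Figure D1:**
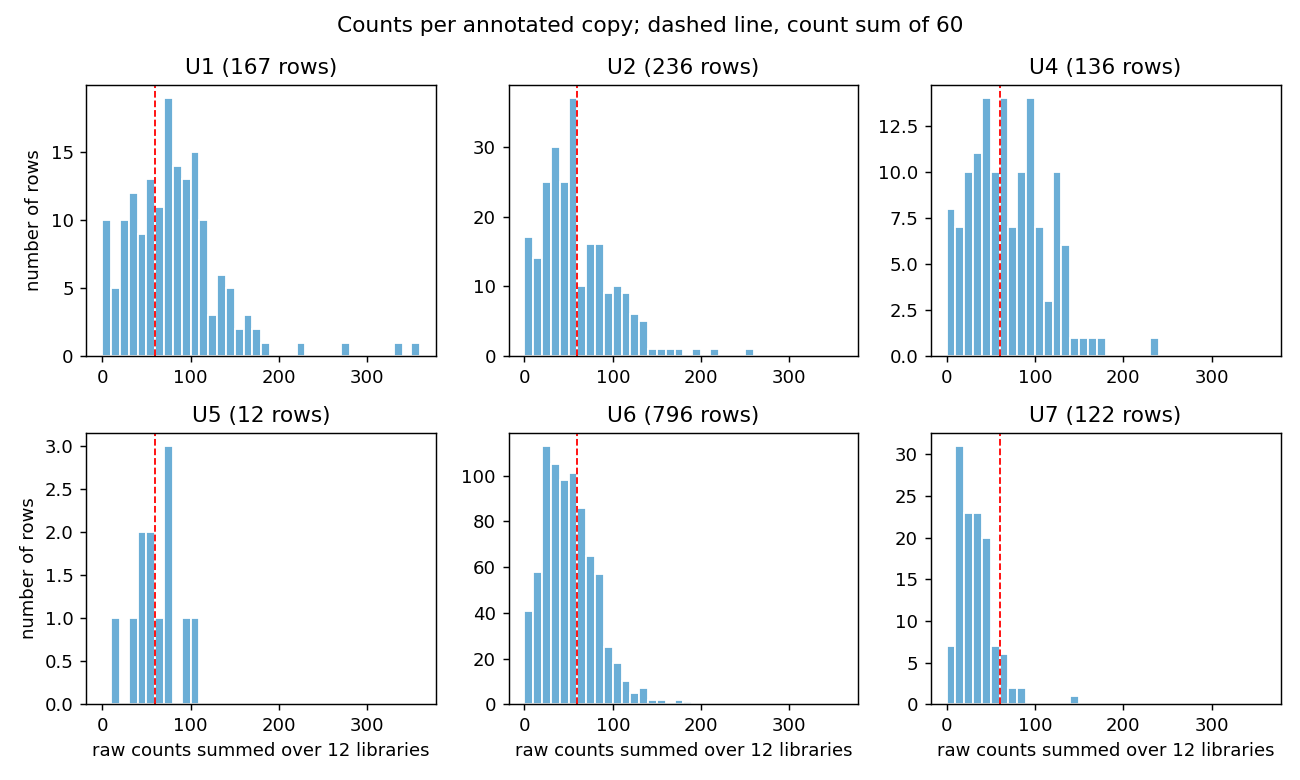
Histograms of raw counts summed over 12 libraries (horizontal axis) for the annotated genes of each snRNA name (vertical axis, number of genes), with the count sum of 60 as a dashed line. In U1, U2, U4, U5, U6 and U7 the genes spread across the line, and only a few U1 genes pass 300 counts.

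The threshold of 60 cut through the dense part of this spread. There were 129 genes with sums of 60 to 69 and 170 with sums of 50 to 59. Just inside stood a U6 copy (ENSRNOG00000051549) and a U1 copy (ENSRNOG00000054171), each with 60 counts, 2 of 15 genes at that sum. Just outside stood the U6 copies ENSRNOG00000068557 and ENSRNOG00000070340 with 59 counts each. Per library the median copy of the 571 had 6 to 8 counts and the highest 24 to 38. In the same libraries the median of 1115 olfactory receptor genes, which encode odorant sensors of the nose and are not normally transcribed in muscle, was 30 to 49 counts, and the median of all genes was 63 to 97.

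At this depth the rank order of the copies was only weakly shared between libraries. Across the 571 copies, Spearman's rho was 0.215 to 0.328 for the 12 pairs of libraries within a group (median 0.273) and 0.140 to 0.359 for the 54 pairs between groups (median 0.281). With CPM averaged over the 3 libraries of each group, rho was 0.565 between mitoplast_RNase and IP_RNase_ProK and 0.532 between IP_RNase_ProK and IP_RNase. It was 0.486 between mitoplast_RNase and IP_RNase, and 0.402 to 0.429 for each of these groups with crude_RNase. The count sum that chose the copies drew on more immunoprecipitated than crude_RNase libraries, which these values do not take into account. The copies are not independent points, since those of a family resemble each other in sequence and all of them share a library's depth. The chi-square between replicate libraries was 1.08 to 1.61 per degree of freedom over the copies, where 1 stands for sampling noise alone. That value used TMM-scaled library sizes. Over all genes it was 1.24 to 12.1, but with unscaled library totals, so these ranges cannot be compared with each other.

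Summed over all 1474 genes, snRNA counts made up a similar part of the TMM-scaled libraries in all 4 preparations, with differences inside the spread of the libraries. The sums were 7242, 7937 and 6594 counts in mitoplast_RNase and 8025, 6806 and 7275 in IP_RNase_ProK. IP_RNase libraries held 6889, 5828 and 7152, and crude_RNase libraries 6056, 6468 and 5974. As scaled levels these were 1505 ± 57.9 CPM in mitoplast_RNase, 1500 ± 60.5 in IP_RNase_ProK, 1565 ± 100 in IP_RNase, against 1588 ± 201 in crude_RNase (SD over 3 libraries). The log2 ratio of group means to crude_RNase was -0.08 for mitoplast_RNase, -0.08 for IP_RNase_ProK and -0.02 for IP_RNase. These 3 comparisons share the crude_RNase libraries. Among the immunoprecipitated groups the log2 ratio was -0.06 for IP_RNase_ProK over IP_RNase, -0.06 for mitoplast_RNase over IP_RNase and 0.01 for mitoplast_RNase over IP_RNase_ProK. In each of the 6 comparisons the libraries of both groups overlapped. The sums do not depend on how reads were divided among copies. They would be affected if reads matching several copies were discarded, and how such reads were treated is unknown.

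The picture against crude_RNase depended on what the counts were set against. As a share of all counts in a library, with no scaling, snRNA genes took 0.182% ± 0.00645 in mitoplast_RNase, 0.183% ± 0.00644 in IP_RNase_ProK and 0.183% ± 0.00796 in IP_RNase, against 0.0904% ± 0.00187 in crude_RNase (SD, n = 3 each), with no overlap. On that scale the log2 ratios to crude_RNase were 1.01, 1.02 and 1.02, and the median of all tested genes moved by 1.08, 1.09 and 1.03. Set against the olfactory receptor counts of the same library, the direction was the other one. The ratio of snRNA to olfactory receptor counts was 0.118 ± 0.00121 in mitoplast_RNase, 0.117 ± 0.00435 in IP_RNase_ProK and 0.114 ± 0.00764 in IP_RNase, against 0.134 ± 0.00802 in crude_RNase. The lowest crude_RNase library, at 0.125, lay above the highest of the other 9 libraries, at 0.123. No test was made on these sums, since each is a score over all snRNA-named genes of a library.

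Another RNA class separated the preparations far more widely on the same scales. The 27 genes of the signal recognition particle RNA, a cytosolic RNA that targets ribosomes to the endoplasmic reticulum, summed to 97.1 ± 6.81 CPM in mitoplast_RNase, 84.6 ± 4.74 in IP_RNase_ProK and 104 ± 20.6 in IP_RNase, against 2715 ± 786 in crude_RNase. Its log2 ratios to crude_RNase were -4.81, -5.00 and -4.70 where those of the snRNA sum were -0.08, -0.08 and -0.02.

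**Figure D2:**
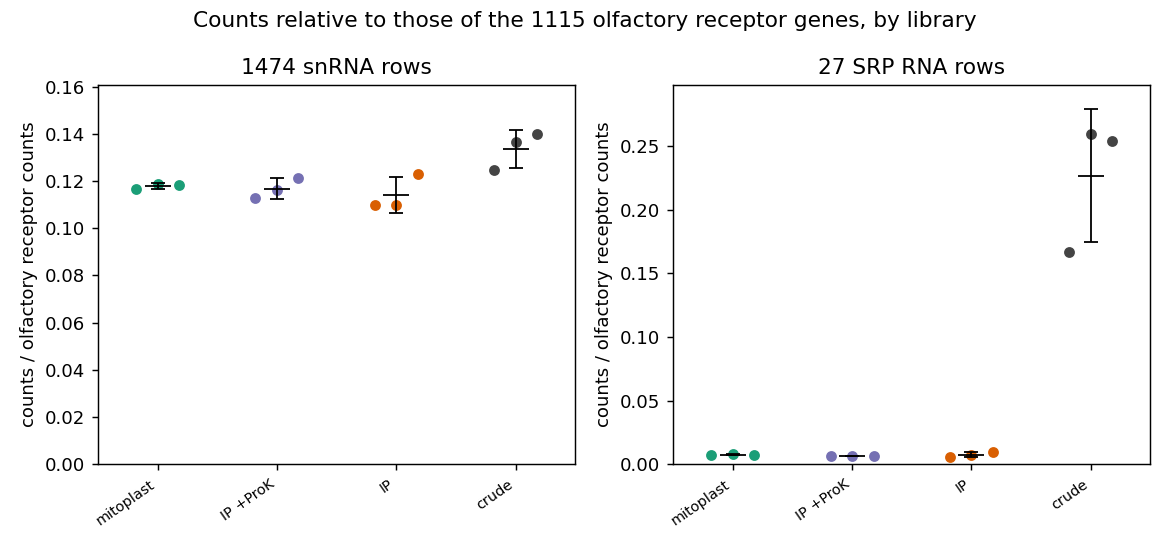
Ratio of counts of the 1474 snRNA genes (left) and of 27 signal recognition particle RNA genes (right) to counts of 1115 olfactory receptor genes, per library. Points are libraries, and bars are means with SD of 3. The snRNA ratio lies between 0.110 and 0.123 in the 9 immunoprecipitated libraries and between 0.125 and 0.140 in crude_RNase, a far smaller gap than that of the signal recognition particle RNA.

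The families kept nearly the same proportions in every preparation. U1, which recognises 5′ splice sites, summed to 256 ± 6.16 CPM in mitoplast_RNase, 241 ± 7.53 in IP_RNase_ProK, 252 ± 19.6 in IP_RNase and 258 ± 16.0 in crude_RNase. U2, which pairs with the branch point, summed to 256 ± 10.6, 261 ± 18.6, 262 ± 30.1 and 261 ± 48.4 CPM in the same groups. U4, the partner of U6, summed to 172 ± 8.17, 179 ± 14.2, 177 ± 15.9 and 184 ± 30.4 CPM. U6 itself summed to 735 ± 33.7, 732 ± 29.4, 777 ± 33.9 and 785 ± 104 CPM. For U1, U2, U4 and U6 the log2 ratios of group means stayed between -0.10 and 0.08 in the 6 comparisons.

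U5, U12, Rnu11 and U7 had lower sums. U5, which aligns the exons, summed to 12.7 ± 2.0 CPM in mitoplast_RNase, 13.5 ± 2.65 in IP_RNase_ProK, 14.4 ± 1.20 in IP_RNase and 14.6 ± 1.35 in crude_RNase. U12, the minor spliceosome's branch-point RNA, summed to 3.32 ± 0.0325, 2.59 ± 0.356, 3.30 ± 1.47 and 3.14 ± 0.970 CPM, and Rnu11, its 5′ splice site partner, to 1.85 ± 0.963, 2.15 ± 0.325, 1.97 ± 0.318 and 1.65 ± 0.730 CPM. U7, the histone-processing RNA, summed to 69.5 ± 4.87 CPM in mitoplast_RNase and 68.0 ± 4.96 in IP_RNase_ProK, against 78.2 ± 1.80 in IP_RNase. Neither of the first 2 groups overlapped with IP_RNase in CPM (log2 ratios of -0.17 and -0.20), but both did in the ratio to olfactory receptor counts, and crude_RNase, at 79.6 ± 12.1 CPM, overlapped with each. U1 and U12 likewise did not overlap between mitoplast_RNase and IP_RNase_ProK, with log2 ratios of 0.08 and 0.36. The U12 gap rests on 16, 17 and 15 counts against 13, 11 and 14, so its small SD in mitoplast_RNase is no measure of precision. These gaps are descriptions and were not tested. On the ratio to olfactory receptor counts U1 overlapped between mitoplast_RNase and IP_RNase_ProK, and U12 did not.

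**Figure D3:**
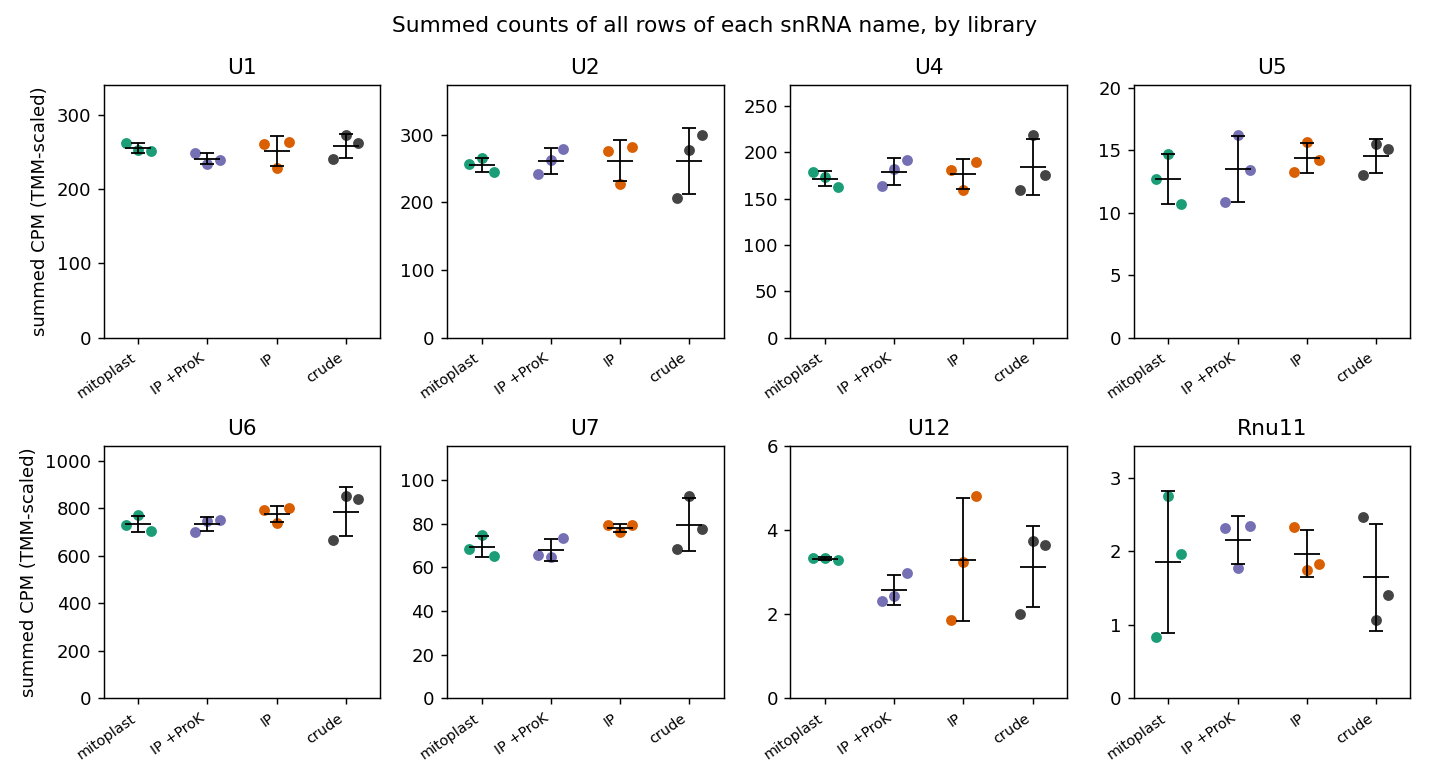
Summed level of all annotated genes of each snRNA name (vertical axis, CPM scaled by TMM, from 0) per library in 4 preparations. Points are libraries, and bars are means with SD of 3. For U1, U2, U4 and U6 the log2 ratios between the means of 2 preparations lie between -0.10 and 0.08.

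The 3 copies with the most counts were all U1 genes, and none of them passed the test in any of the 6 comparisons. The leading U1 copy (ENSRNOG00000063243) had 23, 28 and 32 counts in mitoplast_RNase, 38, 33 and 30 in IP_RNase_ProK, 28, 24 and 32 in IP_RNase and 38, 29 and 16 in crude_RNase. Every group overlapped with every other in scaled level, which spanned 4.48 to 8.52 CPM over the 12 libraries. Its log2 fold change against crude_RNase was -0.29 ± 0.254 (SE) in mitoplast_RNase, -0.04 ± 0.245 in IP_RNase_ProK and -0.09 ± 0.254 in IP_RNase, with edgeR adjusted p of 0.634, 0.960 and 0.907. The second U1 copy (ENSRNOG00000069150) had 33, 27 and 37, then 29, 20 and 34, then 24, 20 and 26 counts in the same 3 groups, against 38, 23 and 26 in crude_RNase. In CPM its IP_RNase libraries all lay below its crude_RNase libraries, with a log2 fold change of -0.42 ± 0.261 and an adjusted p in edgeR of 0.428, and every other pair of groups overlapped. The third (ENSRNOG00000070410) had 18, 10 and 17 counts in IP_RNase against 34, 32 and 14 in crude_RNase. It came closest of the 3 to the threshold, with a log2 fold change of -0.93 ± 0.309 and an adjusted p of 0.059.

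The leading copies of U2, U4 and U6 did not pass the test in any comparison either. The U2 copy (ENSRNOG00000064360) had 26, 16 and 28 counts in mitoplast_RNase, 29, 19 and 26 in IP_RNase_ProK, 16, 19 and 29 in IP_RNase and 22, 16 and 9 in crude_RNase. The U4 copy (ENSRNOG00000069097) had 22, 28 and 20, then 23, 14 and 21, then 19, 14 and 20, against 18, 20 and 12 in crude_RNase. Each group of these copies overlapped with crude_RNase in CPM. The leading U6 copy (ENSRNOG00000055965) had 15, 15 and 13 counts in mitoplast_RNase, 20, 17 and 14 in IP_RNase_ProK, 11, 8 and 13 in IP_RNase, and 18, 21 and 17 in crude_RNase. In CPM all 9 immunoprecipitated libraries lay below the 3 crude_RNase libraries. Its log2 fold change against crude_RNase was -0.68 ± 0.312 in mitoplast_RNase, -0.46 ± 0.302 in IP_RNase_ProK and -0.91 ± 0.332 in IP_RNase, with edgeR adjusted p of 0.249, 0.453 and 0.0949.

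Copies of the rarer families were at the limit of the depth. The leading U5 copy (ENSRNOG00000063748) had 5 to 12 counts in each library, with 7, 12 and 12 in mitoplast_RNase against 8, 5 and 8 in crude_RNase. The leading U7 copy (ENSRNOG00000060761) had 11, 15 and 13 counts in mitoplast_RNase, 16, 10 and 10 in IP_RNase_ProK, 14, 9 and 16 in IP_RNase and 6, 11 and 11 in crude_RNase. Rnu11 (ENSRNOG00000053078) had 4, 14 and 9 counts in mitoplast_RNase, 13, 8 and 11 in IP_RNase_ProK, 10, 7 and 8 in IP_RNase and 11, 4 and 5 in crude_RNase. None of these 3 passed the test, and the groups of each overlapped with crude_RNase. The U12 copy (ENSRNOG00000054193) had 9, 5 and 2, then 5, 5 and 4, then 3, 4 and 4 counts, against 6, 5 and 9 in crude_RNase, too few to be tested after the low-count filter.

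The test across all genes, edgeR's quasi-likelihood test with Benjamini-Hochberg adjustment over 26483 genes, was open to 205 of the 571 copies. The other 366 fell under the low-count filter: 50 of U1, 47 of U2, 40 of U4, 4 of U5, 215 of U6, 9 of U7 and the U12 copy. The filter works on CPM of the unscaled library, and its minimum of 2.54 CPM equalled 16.7 to 18.1 counts in crude_RNase libraries but 8.43 to 11.6 in the others. Of the 205 copies, 181 had no crude_RNase library above that minimum and 24 had at least 1. Copies that were high in an immunoprecipitated group could therefore enter more easily than copies that were high in crude_RNase, and no count or median over the 205 is read as support for a direction. The fit was for this reason repeated for all 571 copies. It then held every gene of the table with a count sum of 60 or more (27753 genes). That sum also drew on more immunoprecipitated than crude_RNase libraries. Counts and medians over the 571 are therefore not read as support for a direction either.

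Between mitoplasts and crude mitochondria 1 of the 205 tested copies passed the test, higher in mitoplast_RNase, which is 0.488% of them, where 5.54% of all tested genes passed (0.997% higher and 4.54% lower). Without crude_RNase 1 the count was 4 and without crude_RNase 2 it was 2. At an unadjusted p under 0.05 there were 17 (8.29%), against 16.7% of all genes. The median log2 fold change of the tested copies was 0.07 and that of all tested genes 0.00. With all 571 copies in the fit, 1 was higher and 2 were lower (0.525%, against 5.25% of all genes, 0.962% higher and 4.29% lower) and the median was -0.04, and 47 had an unadjusted p under 0.05 (8.23%, against 16.4%). In CPM, 12 of the 205 copies lay above crude_RNase in all libraries and 7 below (5.85% and 3.41%), where 8.26% and 10.7% of all tested genes did.

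Between proteinase K-treated and crude mitochondria 2 of the 205 copies passed the test, both higher in IP_RNase_ProK (0.976%, against 6.49% of all genes, 1.45% higher and 5.04% lower), and 4 passed without crude_RNase 2. At an unadjusted p under 0.05 there were 11 (5.37%), against 17.8%. With all 571 copies, 2 were higher and 3 lower (0.876%, against 6.23% of all genes, 1.41% higher and 4.82% lower), and the median log2 fold change was -0.02. Of these 571, 30 had an unadjusted p under 0.05 (5.25%, against 17.4%). Levels lay above crude_RNase in all libraries for 12 of the 205 copies and below for 9 (5.85% and 4.39%, against 9.12% and 11.3% of all genes).

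Between bead-captured and crude mitochondria 1 of the 205 copies was higher in IP_RNase and 1 lower (0.976% together, against 6.36% of all genes, 1.26% higher and 5.09% lower). Without IP_RNase 1, IP_RNase 2 or crude_RNase 3 the count was 1, and without IP_RNase 3 it was 0. The copy called without IP_RNase 2 or without crude_RNase 3 was neither of the 2 reported. At an unadjusted p under 0.05 there were 12 (5.85%), against 17.9%. The same 2 copies passed among all 571 (0.350%, against 6.08%, 1.23% higher and 4.85% lower), with a median log2 fold change of 0.01 and 29 copies at an unadjusted p under 0.05 (5.08%, against 17.4%). Levels lay above crude_RNase in all libraries for 18 of the 205 and below for 5 (8.78% and 2.44%, against 8.61% and 10.8% of all genes). These 3 comparisons share the crude_RNase libraries, so the copies they call are not independent of each other. In each of them a smaller share of the copies was called than of all genes. The median of the 571 copies was 6 to 8 counts per library, where that of all genes was 63 to 97. The smaller share is therefore not read as a smaller difference between preparations. The median SE of the copies was 0.434 to 0.446 on the log2 scale.

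The calls against crude_RNase moved with the scaling and the tool. With library size scaling, which moved the median of all genes by 1.08, 1.09 and 1.03, 144, 148 and 127 of the 205 copies were higher in mitoplast_RNase, IP_RNase_ProK and IP_RNase and 0 were lower, where 96.0%, 96.0% and 95.5% of all genes were called. With scaling to olfactory receptor counts 1 was higher and 1 lower in mitoplast_RNase, 2 were higher and 0 lower in IP_RNase_ProK, and 0 were higher and 4 lower in IP_RNase, where 6.81%, 7.79% and 17.1% of all genes were called. DESeq2 called 1 copy in mitoplast_RNase, the U2 copy ENSRNOG00000052561, and 0 in the other 2 comparisons, in which it left 203 and 196 of the 205 copies without an adjusted p.

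Among the immunoprecipitated preparations no copy passed the test. For IP_RNase_ProK against IP_RNase 0 of 205 passed in edgeR, where 0.14% of 26483 and, with 27753 tested, 0.141% of all genes did, and 13 had an unadjusted p under 0.05 (6.34%, against 8.86% of all genes). For mitoplast_RNase against IP_RNase 0 passed, where 0.155% and, with 27753 tested, 0.148% of all genes did, and 11 had an unadjusted p under 0.05 (5.37%, against 8.93%). For mitoplast_RNase against IP_RNase_ProK 0 passed, where 0% of all genes did, and 8 had an unadjusted p under 0.05 (3.90%, against 2.80%). DESeq2 likewise called 0 copies in these 3 comparisons, and so did edgeR with all 571 copies. Of the 571, 24, 24 and 19 had an unadjusted p under 0.05 (4.2%, 4.2% and 3.33%, against 8.67%, 8.73% and 2.81% of all genes). Levels lay apart in all libraries for 9 higher and 10 lower copies of the 205 in the first comparison (4.39% and 4.88%, against 8.36% and 8.27% of all genes). They did so for 11 and 8 in the second (5.37% and 3.90%, against 7.90% and 8.05%) and for 3 and 11 in the third (1.46% and 5.37%, against 4.71% and 4.76%). The median log2 fold change of the 571 was -0.04, -0.02 and 0.03. A missed threshold at a median of 6 to 8 counts per copy does not show that the preparations held the copies at equal levels.

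**Figure D4:**
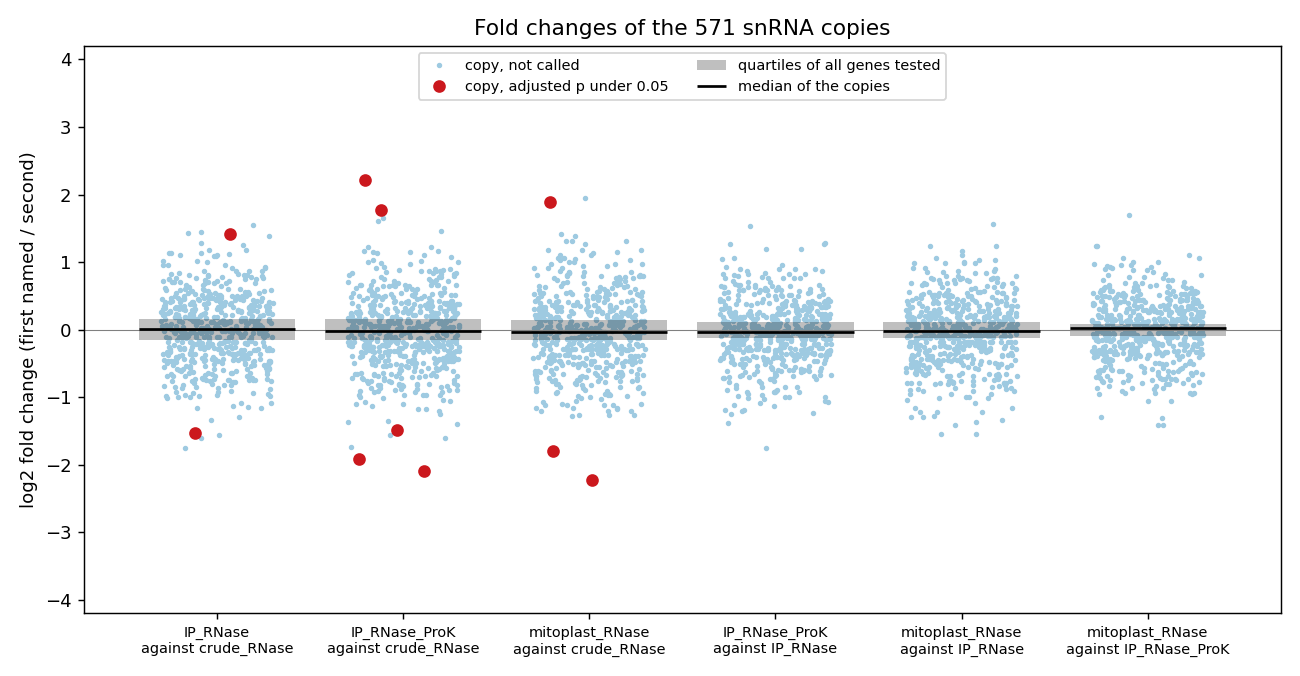
Log2 fold change (vertical axis) of each of the 571 snRNA copies in the fit that includes all of them, for the 6 comparisons on the horizontal axis. Blue points are copies, red points those with an adjusted p under 0.05, grey bands the quartiles of all genes tested and black lines the medians of the copies, which lie between -0.04 and 0.03. The copies scatter around 0, beyond the grey bands on both sides.

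By family the medians in the fit of all 571 copies lay between -0.09 and 0.10 against crude_RNase for U1, U2, U4 and U6. They were -0.02, -0.09 and -0.01 for U1 in mitoplast_RNase, IP_RNase_ProK and IP_RNase, 0.07, 0.10 and 0.10 for U2, -0.05, 0.01 and 0.01 for U4, and -0.07, -0.09 and -0.00 for U6. The 6 U5 copies had medians of -0.31, -0.13 and -0.32 and the 11 U7 copies 0.06, 0.02 and 0.14. Single copies ranged from -2.23 to 2.21 on the log2 scale in these 3 comparisons, with a median SE of 0.493 to 0.506.

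Of the 8 copies that passed the test in either fit, a U2 copy (ENSRNOG00000052561) had the smallest p. It had 16, 11 and 15 counts in mitoplast_RNase, 21, 12 and 21 in IP_RNase_ProK, 8, 7 and 5 in IP_RNase, and 3 in each crude_RNase library. Every immunoprecipitated library was above every crude_RNase library in CPM, and IP_RNase lay between crude_RNase and the other groups without overlap. Its log2 fold change against crude_RNase was 2.21 ± 0.459 in IP_RNase_ProK (edgeR adjusted p = 0.000492) and 1.89 ± 0.482 in mitoplast_RNase (adjusted p = 0.00723). Both calls held without any single library of the groups compared, with adjusted p up to 0.0068 and 0.0455, and in DESeq2 the second had an adjusted p of 0.0494 and the first none. In IP_RNase against crude_RNase it was 1.02 ± 0.560 and did not pass (adjusted p = 0.346). Against IP_RNase the log2 fold change in IP_RNase_ProK was 1.19 ± 0.382, with an adjusted p of 0.272.

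A U6 copy (ENSRNOG00000063441) was the other one that passed the test with a higher level, in IP_RNase_ProK and IP_RNase. It had 13, 13 and 10 counts in mitoplast_RNase, 20, 26 and 15 in IP_RNase_ProK, 12, 17 and 12 in IP_RNase, and 3, 6 and 5 in crude_RNase. All 9 immunoprecipitated libraries lay above the 3 crude_RNase libraries. The log2 fold change against crude_RNase was 1.77 ± 0.415 in IP_RNase_ProK (edgeR adjusted p = 0.00262, up to 0.0475 without 1 library) and 1.42 ± 0.446 in IP_RNase (adjusted p = 0.0411). In mitoplast_RNase it was 1.05 ± 0.460 and did not pass (adjusted p = 0.217). With scaling to olfactory receptor counts the adjusted p in IP_RNase was 0.0532, and with only the 2 groups in the fit it was 0.0518. The call in IP_RNase was also lost without IP_RNase 1, 2 or 3 (adjusted p of 0.0682, 0.196 and 0.0543) and without crude_RNase 1 or 3 (0.215 and 0.0685). Neither this copy nor the U2 copy had a crude_RNase library above the filter's minimum.

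A second U6 copy (ENSRNOG00000058532) was lower in IP_RNase, with 8, 4 and 2 counts against 12, 7 and 19 in crude_RNase. It had 4, 10 and 10 in mitoplast_RNase and 12, 6 and 9 in IP_RNase_ProK, and neither of those groups differed from crude_RNase past the threshold. The highest IP_RNase library and the lowest crude_RNase library both stood at 1.87 CPM. The log2 fold change was -1.53 ± 0.480 (edgeR adjusted p = 0.0408), and the call was lost without IP_RNase 2 or 3 (0.127 and 0.236) or crude_RNase 3 (0.332), with library size scaling (0.319) and with no low-count filter (0.0541).

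The other 5 copies were under the low-count filter and passed only in the fit of all 571, and they are named after their values were seen. All 5 were lower than in crude_RNase on the TMM scale, and library size scaling ended each call. In IP_RNase_ProK a U6 copy (ENSRNOG00000070999) had 2, 4 and 3 counts against 10, 10 and 8 in crude_RNase, which is -1.92 ± 0.510 as a log2 value, with an adjusted p of 0.0105 in edgeR. A U4 copy (ENSRNOG00000067352) had 9, 6 and 4 counts in IP_RNase_ProK against 14, 16 and 13 (-1.49 ± 0.425, adjusted p = 0.0197). A further U6 copy (ENSRNOG00000058099) had 3, 1 and 3 counts against 15, 5 and 5 (-2.09 ± 0.598, adjusted p = 0.020). In mitoplast_RNase a U2 copy (ENSRNOG00000064436) had 3, 4 and 4 counts against 10, 9 and 13 in crude_RNase (-1.80 ± 0.505, adjusted p = 0.0188). The last U6 copy (ENSRNOG00000067206) had 3, 2 and 1 counts in mitoplast_RNase against 6, 9 and 9 (-2.23 ± 0.587, adjusted p = 0.0104).

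Each of these 5 calls was lost without at least 1 library of its comparison. In DESeq2 ENSRNOG00000064436 and ENSRNOG00000067206 had adjusted p of 0.0968 and 0.0811, and the other 3 had none. ENSRNOG00000070999 lost it without IP_RNase_ProK 1 (adjusted p = 0.104). ENSRNOG00000067352 lost it without IP_RNase_ProK 2 or 3 or crude_RNase 2 (0.0582, 0.111 and 0.0756), and ENSRNOG00000058099 without IP_RNase_ProK 1 or 2 or crude_RNase 1 (0.0679, 0.111 and 0.225). ENSRNOG00000064436 lost it without mitoplast_RNase 1 or 2 or crude_RNase 3 (0.0893, 0.066 and 0.117), and ENSRNOG00000067206 without mitoplast_RNase 2 or 3 or crude_RNase 3 (0.0513, 0.070 and 0.0561). Copies of a family resemble each other in sequence, so counts of any 1 copy depend on how reads that match several were assigned.

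**Figure D5:**
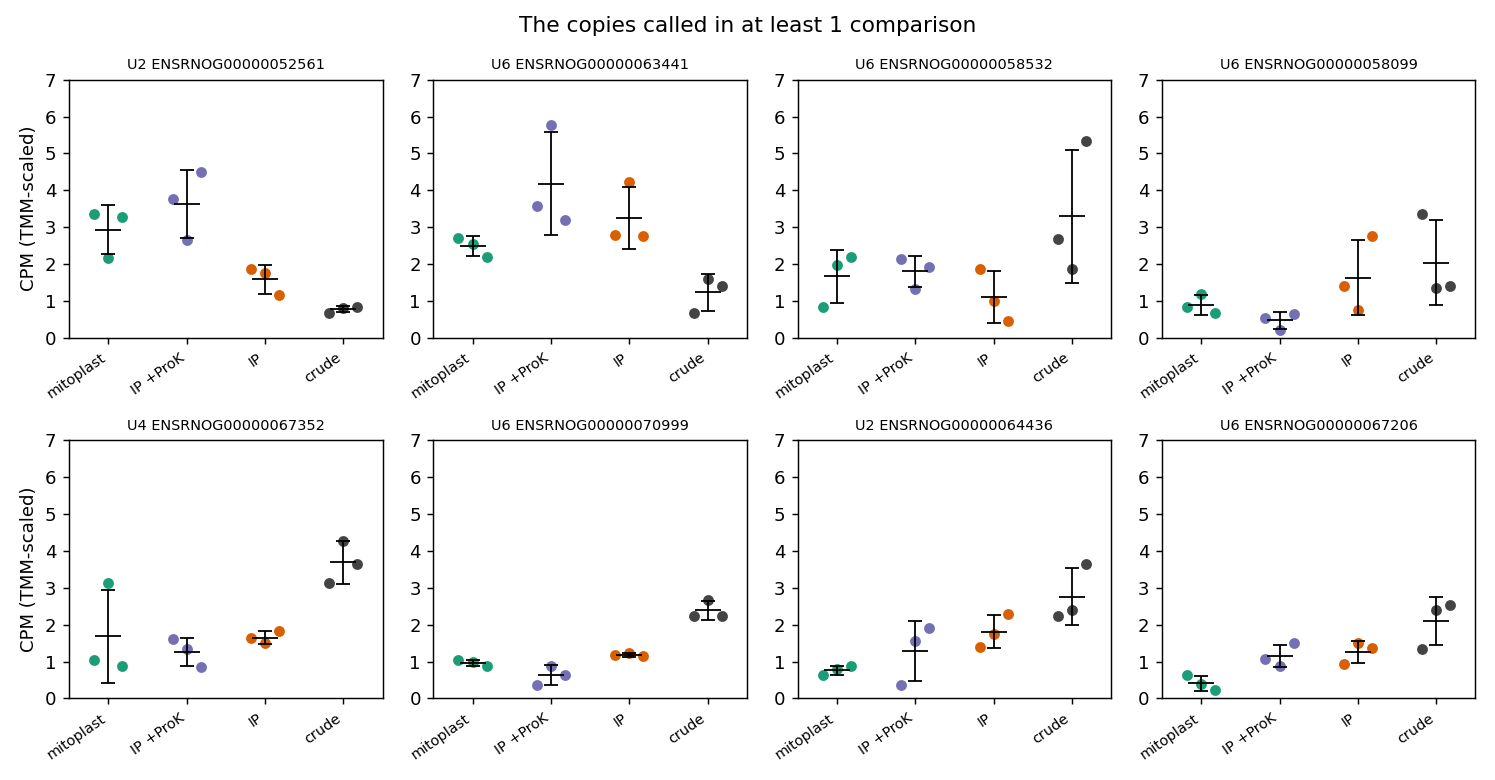
CPM (vertical axis, TMM-scaled) of the 8 snRNA copies called in at least 1 comparison, per library in 4 preparations. Points are libraries, and bars are means with SD of 3. The U2 copy ENSRNOG00000052561 and the U6 copy ENSRNOG00000063441 are lowest in crude_RNase, and the other 6 have their highest mean there.

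Genes for the proteins that act with snRNAs were measured at higher counts and in the same fit. The 88 tested genes covered the Sm and LSm rings that encircle snRNAs, the U1, U2 and U4/U6.U5 particle proteins, the minor spliceosome and U7 proteins, and factors of snRNA biogenesis. Each Ensembl identifier counted as 1 gene, and some symbols had more than 1. The tested identifiers were 9 for 8 Sm symbols, 8 for 7 LSm symbols and 17 for 15 U4/U6.U5 symbols. Against crude_RNase 0 were higher and 3 lower in mitoplast_RNase (3.41%, where 5.54% of all tested genes were called), 2 higher and 6 lower in IP_RNase_ProK (9.09%, where 6.49% were), and 0 higher and 7 lower in IP_RNase (7.95%, where 6.36% were). The median log2 fold changes of the 88 were -0.14, -0.13 and -0.11. With library size scaling 86, 87 and 87 of them were higher and 0 lower in the same comparisons, where 96.0%, 96.0% and 95.5% of all genes were called. With olfactory receptor scaling 0 were higher and 8, 8 and 35 lower, where 6.81%, 7.79% and 17.1% of all genes were called and their median moved by -0.11, -0.12 and -0.21. Without mitoplast_RNase 1 or 2 the count in mitoplast_RNase was 1, and without crude_RNase 1 it was 5. In IP_RNase_ProK it was 3 without IP_RNase_ProK 1 and 4 without IP_RNase_ProK 2.

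On the TMM scale Lsm4, Snrpf and Strap were lower in all 3 of these comparisons, which share the crude_RNase libraries. Snrpf, which encodes the Sm ring subunit F, had 8.42 ± 1.44 CPM in mitoplast_RNase, 6.77 ± 0.646 in IP_RNase_ProK and 6.52 ± 1.89 in IP_RNase, against 13.3 ± 0.854 in crude_RNase. Its log2 fold changes were -0.66 ± 0.203, -0.97 ± 0.211 and -1.03 ± 0.219, with edgeR adjusted p of 0.0397, 0.000975 and 0.000695. Lsm4, a subunit of the LSm ring that binds the end of U6, fell by 0.45, 0.60 and 0.50 on the log2 scale. Strap, which works with the SMN complex that loads Sm rings onto snRNAs, fell by 0.54, 0.70 and 0.53. The U2 particle gene Sf3b2 fell by 0.55 in IP_RNase, where the U5 particle and tri-snRNP genes Ddx23, Prpf6 and Cd2bp2 fell by 0.42, 0.34 and 0.47. In IP_RNase_ProK Sf3b1, which binds the branch point region in the U2 particle, fell by 0.39, and Prpf4 and Prpf6 of the tri-snRNP by 0.34 and 0.28. Sf3a2, another U2 particle gene, rose there by 0.36 ± 0.114 (edgeR adjusted p = 0.041). Toe1, a nuclease that trims snRNA ends, also rose there, by 0.44 ± 0.125 (edgeR adjusted p = 0.0182). Neither rise was called with olfactory receptor scaling.

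Among the immunoprecipitated groups 1 of the 88 genes passed, in IP_RNase_ProK against IP_RNase, where 0.14% of all genes did. Sf3a2 had 40.8 ± 3.36 CPM in IP_RNase_ProK against 29.0 ± 1.37 in IP_RNase, with a log2 fold change of 0.50 ± 0.114 (adjusted p in edgeR of 0.0482), and this call was lost (0 of 88 passing) without any of the libraries except IP_RNase_ProK 3. For mitoplast_RNase against IP_RNase and against IP_RNase_ProK 0 of the 88 passed in edgeR or DESeq2, and 7 and 3 had an unadjusted p under 0.05, where 8.93% and 2.80% of all genes did.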

How the data were processed

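RNA of 12 mitochondrial preparations of rat skeletal muscle was sequenced, and groups were taken from the titles and the series design. For the crude group the source label names immunoprecipitation, whereas title and design name crude mitochondria, which was followed. The authors deposited 1 table of raw read counts for each Ensembl identifier, as whole numbers. Per the submitters' processing notes, FastQC 0.74, cutadapt 4.6, STAR 2.7.11a, HTSeq and mRatBN7.2 were used. Not given in the sources used here are the strand setting, the annotation release and what was done with reads matching several places. Per the labels' protocols, RNA had on-column DNase I treatment and ribosomal depletion.

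Counts of all 12 libraries were fitted in 1 model of 4 groups with edgeR 4.0.16 (R 4.3.3; quasi-likelihood test, TMM, filterByExpr with a minimum count of 10, Benjamini-Hochberg over the 26483 genes tested, threshold 0.05). CPM are scaled to TMM effective sizes, with factors of 0.525 to 0.679 for crude libraries and 1.12 to 1.23 for the others. The SE is the absolute log2 fold change over the square root of F. The 5 copies called only with all copies in the fit were named after their values were seen. Alternatives were DESeq2 1.42.0, other scalings, other filters, 2 groups alone, a replicate block and leaving out each library, and the model was tested on simulated data.

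The copies, the spliceosomal protein list and the tests were chosen with earlier results of these data known. Named were the copy with the most counts of each family, the 3 with the most counts of all, every copy past the threshold, and the copies beside the count sum of 60. Of the protein genes, the rule took up to 3 with the smallest p per role, of which those past the threshold are given. Sequences of snRNA genes were not used here.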

Additional observations from a re-analysis of the deposited data

How the results depend on the processing

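Numbers of called snRNA copies are given for mitoplast_RNase, IP_RNase_ProK and IP_RNase against crude_RNase in that order, where the values reported were 1, 2 and 2. They were 1, 0 and 0 with DESeq2, 144, 148 and 127 with library size scaling, 2, 2 and 4 with olfactory receptor scaling and 205, 205 and 205 with mitochondrial mRNA scaling. They were 3, 5 and 1 with no low-count filter, 3, 5 and 2 with the count sum of 60, 1, 2 and 0 with only the 2 groups compared, and 1 to 4, 2 to 4 and 0 to 2 with 1 library left out. Called protein genes, reported as 3, 8 and 7, were 86, 87 and 87 with library size scaling, 88, 88 and 88 with mitochondrial mRNA scaling and 8, 8 and 35 with olfactory receptor scaling. DESeq2 called 1 in mitoplast_RNase and 3 in IP_RNase_ProK, the fits of only the 2 groups 1 and 5, and the fits without 1 library 1 to 5, 3 to 7 and 6 to 8. Of all genes, 5.54%, 6.49% and 6.36% were called in the fit reported and 5.25%, 6.23% and 6.08% with the count sum of 60. Mitochondrial mRNA scaling moved the median of all genes by 4.93, 4.95 and 3.81 against crude_RNase. Its counts are therefore not read as a result about the copies or the protein genes. The same holds for every count here without the share of all genes beside it.

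Between IP_RNase_ProK and IP_RNase mitochondrial mRNA scaling called 129 copies, 88 protein genes and 94.0% of all genes, whose median it moved by 1.13, and the single protein gene reported fell to 0 with DESeq2, library size scaling, olfactory receptor scaling and the replicate block, and to 0 to 1 without 1 library. Between mitoplast_RNase and IP_RNase that scaling called 136 copies, 85 protein genes and 93.4% of all genes, with a median shift of 1.12, and the fit of only the 2 groups called 1 protein gene. With library size scaling the log2 ratio of the snRNA sum to crude_RNase was 1.011 in mitoplast_RNase, 1.016 in IP_RNase_ProK and 1.019 in IP_RNase. Mitochondrial mRNA scaling shifted the median of all genes against crude_RNase by more than the size of any negative value reported for a called copy, so by construction it turned these 6 positive, ENSRNOG00000058532 to 2.15, ENSRNOG00000058099 to 2.696, ENSRNOG00000067352 to 3.43, ENSRNOG00000070999 to 2.94, ENSRNOG00000064436 to 3.06 and ENSRNOG00000067206 to 2.59. The cause of the other changes was not tested.

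Nothing in the labels says that replicate numbers pair the libraries. Same-numbered libraries of 2 groups correlated at -0.102 to 0.0665 in their deviations from the group means. Of the 12 libraries, 6 correlated best with a library of their own number. Deviations from means of 3 libraries are noisy, so these values cannot decide whether the aliquots were paired. With the replicate block 1, 2 and 2 copies were called against crude_RNase, and 3, 8 and 7 protein genes. The alternatives for the 5 copies called only in the fit of all copies were added after the data were seen. At 6 to 8 counts per copy and library, depth limits single copies more than sums, and counts of PCR reads are not independent molecules.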
